A study of Mus musculus with 20 samples.

Results

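The genes that encode the translation initiation factors (symbols beginning with Eif) and elongation factors (symbols beginning with Eef) were followed in total and polysome RNA of mouse liver. Members were the protein-coding genes with such a symbol, pseudogenes left out, at over 0.5 CPM (counts scaled to the library total) in at least 4 of the 20 libraries. Of 69 such genes in the table, 65 were members, among 13795 genes of any kind that met the same level. Each of the 65 was over 0.5 CPM in all 20 libraries, and the other 4 genes in none: Eef1a2, the muscle and neuron form of elongation factor 1A, peaked at 0.04999 CPM, Eif4e1b at 0.0599, Eef1akmt3 at 0.213 and Eif5a2 at 0.341. By their fourth-highest library the members nearest to the threshold were Eif2ak4 (5.23 CPM, range 2.62 to 7.41) and Eef1akmt2 (5.58 CPM, range 2.02 to 6.33).

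The livers came from 10 chow-fed male C57BL/6J mice given 3 intraperitoneal injections of a locked nucleic acid (LNA) antisense oligomer at 3 mg/kg, 1 every other day. In 5 mice (1, 2, 3, 8 and 9) the LNA targeted GFP, a sequence mice lack, as the control, and in 5 mice (4, 6, 10, 11 and 12) it targeted SNORA73, a pair of box H/ACA small nucleolar RNAs from introns of Snhg3. The sample labels spell the second group Snora37kd, and they do not say which of the study's SNORA73 LNAs was injected. Mice were treated at 8 weeks of age by the methods for LNA injection and livers taken 2 days after the last injection, while the polysome method gives another age, and which applies to these mice was not stated. Each mouse gave 1 library of total liver RNA and 1 of RNA pooled from polysome fractions, that is, mRNA carrying several ribosomes, after cycloheximide by tail vein. By the study's methods, total RNA was purified on a column with DNase digestion. Polysome RNA was instead precipitated from gradient fractions, treated with heparinase and cleaned up by another kit. The kind of RNA and its extraction therefore cannot be told apart. The oligomers were given to the whole animal, and in whole liver fewer cells of a type and less RNA per cell cannot be told apart.

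Total RNA libraries held 20005389 to 42023390 estimated counts and polysome libraries 14852951 to 33824659, and the members took 0.846% to 1.22% and 0.939% to 1.21% of them. Snora73a and Snora73b had at most 2 and 4 counts in any library of this polyadenylated RNA, which gives no check of the knockdown. Their host Snhg3 had 123 to 201 counts in total RNA with the GFP LNA, in libraries of 24098067 to 42023390 counts. It had 61 to 147 with the SNORA73 LNA, in libraries of 20005389 to 29887649 counts. These Snhg3 counts are not scaled to depth and do not compare the groups. The 6 hepatocyte markers summed to 37810 to 86870 CPM in every library. The 5 erythroid markers summed to 418 to 824 CPM in total and 847 to 1436 CPM in polysome RNA of GFP LNA livers and to 203 to 687 and 326 to 1271 CPM with the SNORA73 LNA, none of the 5 was at 0 throughout, and 4 of the 5 were higher in polysome RNA with the GFP LNA and none with the SNORA73 LNA. In both sets of livers 3 of 5 stellate and 2 of 5 sinusoidal endothelial markers were lower in polysome than in total RNA, and 1 hepatocyte marker was higher and 1 lower. With 1 LNA only, 1 stellate marker (SNORA73) and 1 of 4 B and T cell markers (GFP) were higher, and no Kupffer or bile duct marker passed. The part of these markers in the results below was not tested. Mitochondrially encoded genes took 11.2% to 15.4% of counts in total and 1.76% to 3.89% in polysome RNA.

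Translation of an mRNA begins when eIF4F (the cap-binding eIF4E, the helicase eIF4A and the scaffold eIF4G) and eIF3 bring the small ribosomal subunit, loaded with initiator tRNA by the GTPase eIF2, to the cap. eIF1 and eIF1A keep the subunit scanning until a start codon is found, eIF5 triggers GTP hydrolysis by eIF2, eIF5B joins the large subunit and eIF2B recharges eIF2. Stress kinases phosphorylate the alpha subunit of eIF2 and block that recharging, and the 4E-BPs, which mTORC1 inactivates, keep eIF4E from eIF4G. Elongation then needs eEF1A, which delivers aminoacyl-tRNA, its exchange factor eEF1B and the translocase eEF2. Several of these mRNAs, the elongation factors among them, are known to carry a 5′ terminal oligopyrimidine (TOP) tract, a C at the first base followed by more C and T, through which LARP1 and mTORC1 set how many of their copies are on polysomes.

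The bases around annotated transcription starts are shown for 11 members chosen because they cover both directions of the polysome results and both sequence classes. The 30-base windows run from 10 bases before the RefSeq start (GRCm38.p6) to 20 from it on, so they hold the end of the promoter and the first bases of the transcript, 5′ to 3′. Capitals mark a C followed by at least 4 bases that are each C or T where that C lies within 5 bases of the annotated start, and the longest such stretch where a window holds several.
Eef1a1, chr9:78481705-78481734, minus strand: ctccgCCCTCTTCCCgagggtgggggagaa
Eif2s3x, chrX:94212632-94212661, minus strand: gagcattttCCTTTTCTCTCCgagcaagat
Eif4a2, chr16:23107458-23107487, plus strand: gaaaccccgtaggagcagggcggccgagga
Eef1b2, chr1:63176821-63176850, plus strand: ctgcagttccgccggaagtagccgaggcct
Eif3f, chr7:108934405-108934434, plus strand: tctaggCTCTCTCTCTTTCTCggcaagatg
Eif3l, chr15:79075213-79075242, plus strand: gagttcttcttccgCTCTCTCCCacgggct
Eif2b5, chr16:20498807-20498836, plus strand: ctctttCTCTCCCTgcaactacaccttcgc
Eif2b4, chr5:31193120-31193149, minus strand: cccagtgcacgccggaagttgtagtccgct
Eif1, chr11:100319939-100319968, plus strand: ggcgtcacaggggcggctatataagtgaat
Eif5b, chr1:37998000-37998029, plus strand: ctgggttcccacctggccggcggctctact
Eif3c, chr7:126566347-126566376, minus strand: ctgctcagagggactcggcagcttagctgg
Eef1a1, Eif2s3x, Eif4a2 and Eef1b2 were lower in polysome than in total RNA of GFP LNA livers, Eif3f did not pass the test, and the other 6 were higher. An annotated start need not be the first base used in liver.

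Such a stretch stood at 18.3% of 32851 annotated starts in the table, searched on the transcribed strand only. Starts on chromosome 18, where Eif1a, Eif3j2 and Eif4ebp3 lie, were left out for members but not for the share over all starts. The stretch stood at 16 of the 66 remaining starts of members (24.2%) and at 14 of the 51 members with such an entry (27.5%). Among members with an entry, 6 of 16 with a log2 fold change below 0 in GFP LNA livers had one, Eef1a1 and Eif2s3x among them, and 8 of 35 above 0, such as Eif3l and Eif2b5. The stretch was therefore present on both sides and absent from most members on either side. Of the 9 members listed as TOP mRNAs from textbook knowledge, 5 had an entry and 2 of these, Eef1a1 and Eif3f, showed the stretch.

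The first comparison asked which of the factor mRNAs were richer or poorer in polysome than in total RNA of the same livers. In GFP LNA livers 29 of the 65 members were higher in polysome RNA (44.6%, against 21.8% of all genes tested) and 10 were lower (15.4%, against 21.0%). In SNORA73 LNA livers 31 were higher (47.7%, against 19.7%) and 7 lower (10.8%, against 18.2%). A member counted as higher or lower at a false discovery rate (FDR, the Benjamini-Hochberg adjusted p of edgeR's quasi-likelihood test over all genes) under 0.05. The median log2 fold change of members was 0.32 with the GFP LNA and 0.31 with the SNORA73 LNA, beside 0.03 and 0.02 over all genes, and members spanned -0.93 to 1.21 and -0.89 to 1.36. These values are relative to the other mRNAs of a library and do not count ribosomes on an mRNA.

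The 2 sets of livers shared no library, and 27 members were higher in both, which is 93.1% of the 29 with the GFP LNA and 87.1% of the 31 with the SNORA73 LNA, beside 74.0% and 81.9% over all genes. Of those lower in polysome RNA, 6 were so in both, 60.0% of the 10 and 85.7% of the 7, beside 73.8% and 85.0%. Mouse by mouse, 23 members stood higher in polysome than in total RNA in 10 of 10 mice (35.4%, against 20% of all genes) and 7 stood lower in 10 of 10 (10.8%, against 19.2%). Without mice 9 and 10, 26 were higher and 11 lower with the GFP LNA (against 18.9% and 20.3% of all genes), and 25 higher and 6 lower with the SNORA73 LNA (against 18.2% and 18%). With the mouse as a block in the same model, 35 members were higher and 12 lower with the GFP LNA (against 28.9% and 27.2% of all genes), and 35 higher and 8 lower with the SNORA73 LNA (against 26.0% and 25.1%). Separate fits of each LNA's 10 libraries gave 30 higher and 12 lower members with the GFP LNA (3283 and 3182 of 13283 genes). With the SNORA73 LNA these fits gave 27 higher and 6 lower members (2248 and 2060 of 13063 genes). The plot of all members by role shows the values of the model of 20 libraries, without the block.

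**Figure D1:**
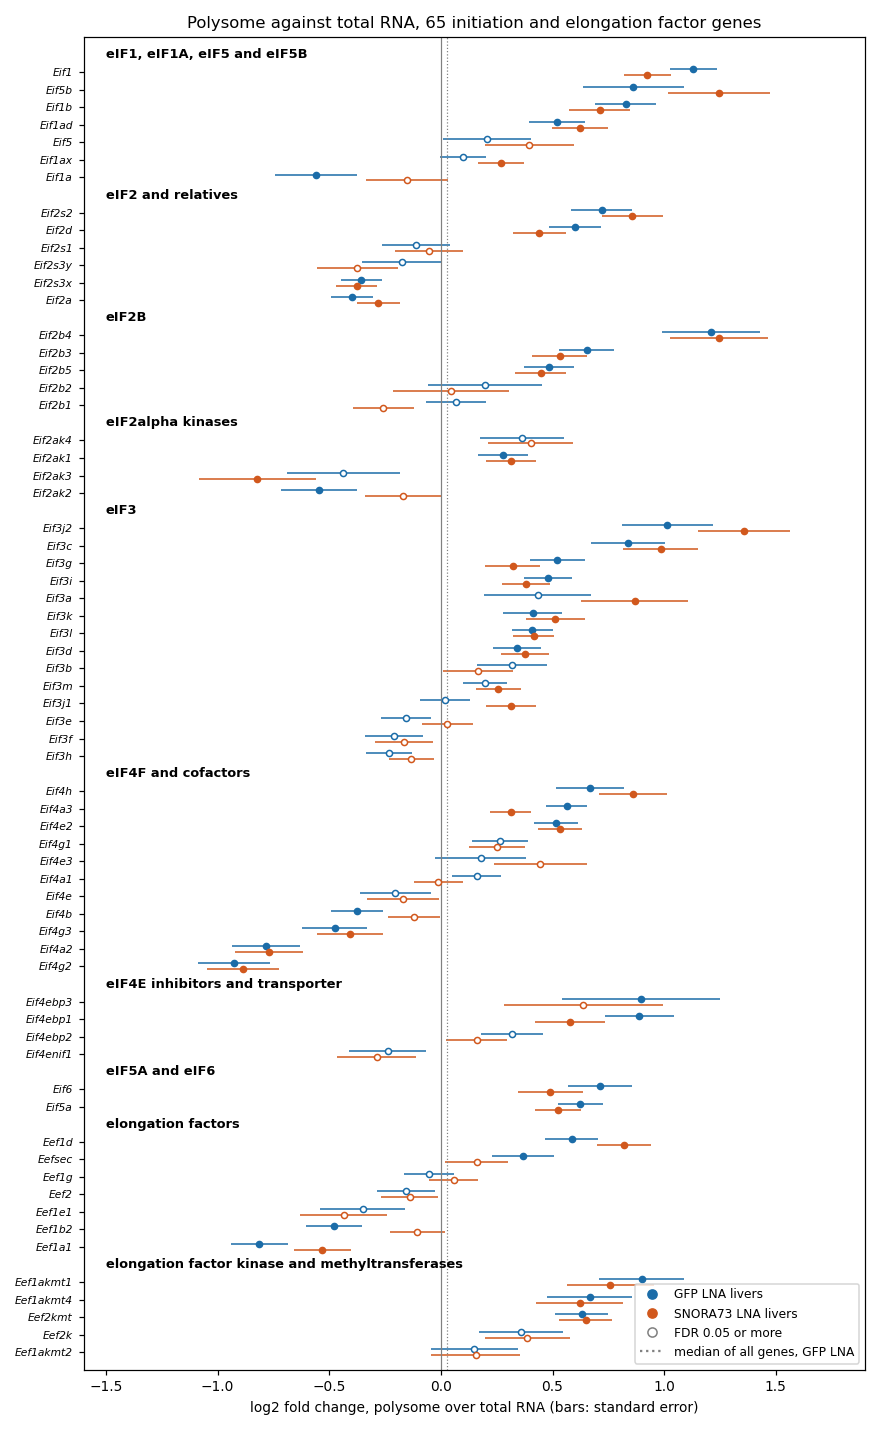
Log2 fold change of polysome over total RNA (horizontal axis, bars are standard errors) for each of the 65 genes, grouped by role, in 5 GFP LNA (blue) and 5 SNORA73 LNA livers (orange). Filled points have an FDR under 0.05; most filled points lie to the right, led by Eif2b4, Eif1 and Eif3j2 with the GFP LNA and by Eif3j2, Eif5b and Eif2b4 with the SNORA73 LNA, while Eif4g2, Eif4a2 and Eef1a1 lie to the left in both sets.

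Among the scanning and joining factors, 4 of 7 were higher and 1 lower with the GFP LNA, and 5 were higher with the SNORA73 LNA. Values for 5 mice are given here and below as normalized CPM in the order of mice 1, 2, 3, 8 and 9 (GFP LNA) or 4, 6, 10, 11 and 12 (SNORA73 LNA), and these levels are not scaled to gene length. Eif1 (ENSMUSG00000035530, chr11:100319949-100322099), which guards the choice of start codon, was at 518, 535, 498, 459.8 and 499 in total RNA of GFP LNA livers and at 1086, 1104, 1057, 1009 and 1236 in polysome RNA. With the SNORA73 LNA it was at 452, 508, 356, 471 and 447 and at 919, 926, 717, 817 and 863. Every polysome value lay above every total value, and polysome RNA exceeded total RNA by 1.13 ± 0.11 log2 units (± standard error; FDR = 8.03e-08) and 0.92 ± 0.11 (FDR = 1.15e-06). Its relative Eif1b rose by 0.83 ± 0.14 and 0.71 ± 0.14, and Eif1ad, which carries an eIF1A-like domain, by 0.52 ± 0.12 and 0.62 ± 0.13.

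Eif5b (ENSMUSG00000026083, chr1:37998010-38055579), the GTPase that joins the subunits, was at 221, 217, 199, 256 and 265 in total and 474, 367, 331, 422 and 511 in polysome RNA of GFP LNA livers. In SNORA73 LNA livers it was at 304, 214, 306, 353 and 220.1 in total and 556, 427, 546, 1246 and 540.3 in polysome RNA, where the library of mouse 11 stood far above the other 4. The fold changes were 0.86 ± 0.23 (FDR = 0.00429) and 1.25 ± 0.23 (FDR = 0.000221), and without mouse 11 the second was 0.99 ± 0.16 (FDR = 0.000121). Eif1a and Eif1ax both encode eIF1A. Eif1a was lower in polysome RNA with the GFP LNA (-0.56 ± 0.18, FDR = 0.0188), but not without mouse 2 (FDR = 0.0547) or mouse 8 (FDR = 0.0659), and had -0.15 with the SNORA73 LNA (FDR = 0.555). Eif1ax had 0.10 (FDR = 0.454) and 0.27 (FDR = 0.0415), and the second call was lost without mice 9 and 10 together (FDR = 0.106) or any of mice 1, 2, 3, 4, 6, 8 and 10 (FDR = 0.0535 to 0.230), with 0.14 without mouse 6. Eif5, the GTPase activator of eIF2, had 0.21 ± 0.20 (FDR = 0.423) and 0.40 ± 0.20 (FDR = 0.121), and passed in both with the mouse as a block (FDR = 0.0366 and 0.000421).

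**Figure D2:**
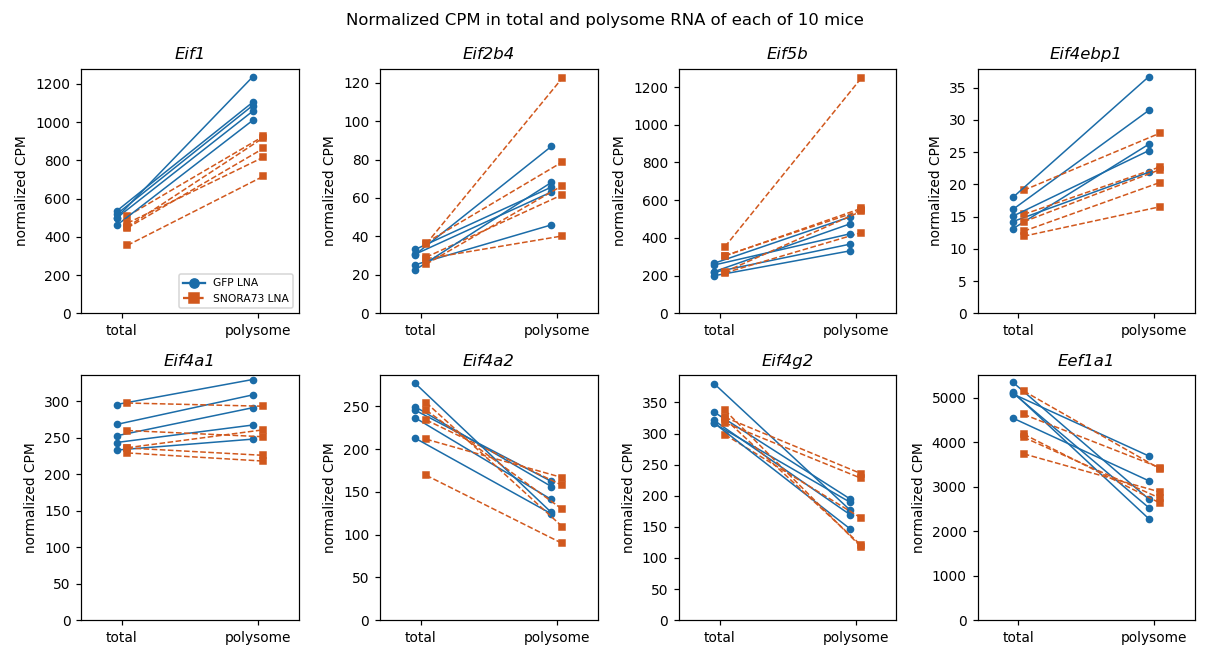
Normalized CPM (vertical axis, from 0) in total and polysome RNA of each of 10 mice, joined by mouse, for 8 genes; blue circles are GFP LNA and orange squares SNORA73 LNA livers. Lines rise in all 10 mice for Eif1, Eif2b4, Eif5b and Eif4ebp1 and fall in all 10 for Eif4a2, Eif4g2 and Eef1a1, while Eif4a1 stays within 218 to 329.

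eIF2 is a trimer, and the mRNAs of its subunits were not alike. Eif2s2, the beta subunit, was higher in polysome RNA by 0.72 ± 0.14 (FDR = 0.000252) and 0.86 ± 0.14 (FDR = 5.24e-05). Eif2s3x, the X-linked gamma subunit, was lower by a log2 change of -0.36 ± 0.09 (FDR = 0.00387) and -0.38 ± 0.09 (FDR = 0.00283). The gamma subunit stood at 81.1 to 98.3 CPM in total and 64.6 to 72.1 in polysome RNA of GFP LNA livers, with no overlap. Eif2s1, the alpha subunit that the stress kinases phosphorylate, had -0.11 ± 0.15 (FDR = 0.578) and -0.05 ± 0.15 (FDR = 0.823), and the Y-linked Eif2s3y -0.18 (FDR = 0.455) and -0.38 (FDR = 0.109; 0.0159 without mouse 6, while the value was -0.25 without mouse 10, FDR = 0.363, and without mice 9 and 10, FDR = 0.378). Reads of Eif2s3x and Eif2s3y, close in sequence, may have been shared between them by the quantification. Both proteins that can bring initiator tRNA without eIF2 passed, in opposite directions: Eif2d was higher (0.60 and 0.44) and Eif2a lower (-0.40 and -0.28, the second not without mouse 11, FDR = 0.0634, or 12, FDR = 0.0670).

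Of the 5 eIF2B subunits, 3 were higher in both sets of livers. Eif2b4 (ENSMUSG00000029145, chr5:31187558-31193139), the delta subunit, stood at 33.2, 25.3, 30.7, 22.6 and 30.6 in total and 65.6, 45.98, 63.1, 68.1 and 86.8 in polysome RNA with the GFP LNA. The SNORA73 LNA livers had 29.2, 28.4, 36.8, 36.1 and 25.6 and 61.7, 40.2, 78.7, 122 and 66.4. Polysome values were above total values in each mouse, by 1.21 ± 0.22 (FDR = 0.000158) and 1.24 ± 0.22 (FDR = 0.000151) on the log2 scale, and by 1.04 ± 0.20 without mouse 11 in the second. Eif2b3 (gamma) had 0.65 and 0.53, and Eif2b5, the catalytic epsilon subunit, 0.48 and 0.45 (FDR = 0.00181 and 0.0039). Eif2b1 (alpha) had 0.07 and -0.26, and Eif2b2 (beta) 0.20 and 0.05, neither past the test.

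The 4 eIF2alpha kinases went in different directions. Eif2ak1, the heme-sensing kinase, was higher in polysome RNA (0.28 ± 0.11, FDR = 0.0481, and 0.31 ± 0.11, FDR = 0.0315), calls lost without mice 9 and 10 together (FDR = 0.0641 and 0.0602), in the first without any of mice 1, 2, 3, 4, 6, 10 and 12 (FDR = 0.0533 to 0.462, with 0.11 without mouse 2), and in the second without any of mice 3, 4, 10, 11 and 12 (FDR = 0.0521 to 0.142). Eif2ak2, the kinase PKR activated by double-stranded RNA, was lower with the GFP LNA (-0.55 ± 0.17, FDR = 0.0135) and had -0.17 ± 0.17 with the SNORA73 LNA (FDR = 0.469). Eif2ak3, the endoplasmic reticulum stress kinase PERK, was lower with the SNORA73 LNA (-0.82 ± 0.26, FDR = 0.0171; 4.61 to 7.99 CPM in total against 2.69 to 4.54 in polysome RNA), a call lost without mouse 10 (FDR = 0.0808). With the GFP LNA it had -0.44 ± 0.25 (FDR = 0.175), and -0.38 ± 0.14 with the mouse as a block (FDR = 0.0312) and -0.28 without mouse 9 (FDR = 0.278). Eif2ak4, the amino acid sensor GCN2, had 0.36 ± 0.19 and 0.40 ± 0.19, which did not pass, with 0.23 without mice 9 and 10 in the first and 0.22 without mouse 11 in the second.

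Within eIF3, 7 of 14 subunit genes were higher in polysome RNA with the GFP LNA and 10 of 14 with the SNORA73 LNA, and none was lower in either. Eif3c, a core subunit, was at 79.8, 71.4, 76.7, 74.96 and 77.8 in total and 138, 120.3, 122, 142 and 158 in polysome RNA of GFP LNA livers. In SNORA73 LNA livers it was at 83.2, 84.6, 84.6, 107 and 84.1 and 146, 124, 146, 287 and 175, mouse 11 being the highest in both kinds of RNA. Its fold changes were 0.84 ± 0.17 (FDR = 0.000385) and 0.98 ± 0.17 (FDR = 9.86e-05; 0.81 ± 0.11 without mouse 11). Eif3j2, of the loosely bound eIF3j, had 1.01 ± 0.20 and 1.36 ± 0.21, whereas its near-identical copy Eif3j1 had 0.02 ± 0.11 (FDR = 0.909) and 0.32 ± 0.11 (FDR = 0.0315; 0.0993, 0.167 and 0.0814 without mouse 4, 6 or 11), and reads may have been split between them in either direction.

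Other eIF3 subunits moved less. The genes Eif3d, Eif3g, Eif3i, Eif3k and Eif3l had 0.34, 0.52, 0.48, 0.41 and 0.41 with the GFP LNA and 0.38, 0.32, 0.38, 0.51 and 0.42 with the SNORA73 LNA, each past the test. Without mice 9 and 10, Eif3k with the GFP LNA (FDR = 0.0726) and Eif3g and Eif3i with the SNORA73 LNA (FDR = 0.0934 and 0.0631) did not pass. With the GFP LNA single mice also decided Eif3k (without mouse 8, FDR = 0.0765, or 9, 0.0624) and Eif3d (without mouse 2, 0.0730, or 8, 0.0515). With the SNORA73 LNA they decided Eif3d (without mouse 12, 0.0569), Eif3i (without mouse 10, 0.0549) and Eif3g (without any of mice 1, 2, 3, 4, 8, 10, 11 and 12, 0.0550 to 0.131). Eif3m had 0.20 and 0.26, the second past the test (FDR = 0.0478) but not without mice 9 and 10 (0.0829) or any of mice 1, 2, 3, 4, 6, 8, 10 and 11 (0.0547 to 0.189). Eif3a, the scaffold subunit, had 0.43 ± 0.24 (FDR = 0.152; 0.0124 without mouse 11; with the mouse as a block 0.43 ± 0.12, FDR = 0.00738) and 0.87 ± 0.24 (FDR = 0.00674). Eif3e, Eif3f and Eif3h, subunit genes counted among TOP mRNAs, lay below 0 with the GFP LNA, at -0.16, -0.21 and -0.23, and did not pass (FDR = 0.275, 0.2 and 0.0733), Eif3f being at -0.32 without mice 9 and 10 (FDR = 0.0955). With the mouse as a block Eif3b was higher in GFP LNA livers (0.31 ± 0.09, FDR = 0.00896) and Eif3h lower (-0.23 ± 0.09, FDR = 0.0318), as Eif3h was without mice 9 and 10 (FDR = 0.0455), mouse 10 (0.0484) or mouse 12 (0.0369).

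Among the eIF4F genes and their relatives was the member with the lowest value in both sets of livers. This member, Eif4g2 (ENSMUSG00000005610, chr7:111067985-111083030), a relative of eIF4G that lacks the eIF4E binding site, was at 334, 380.2, 321, 316 and 317 in total RNA and at 195, 177, 169.5, 189 and 147 in polysome RNA with the GFP LNA. It stood at 298, 326, 317, 337 and 324 and 164, 236, 228, 118 and 121 with the SNORA73 LNA. All total values exceeded all polysome values, with -0.93 ± 0.16 (FDR = 0.000104) and -0.89 ± 0.16 (FDR = 0.000203). Eif4a2, the second eIF4A helicase, was at 245, 249, 236, 277 and 213 and 162, 156, 141, 126 and 124 with the GFP LNA and had -0.78 ± 0.15 (FDR = 0.000321) and -0.77 ± 0.15 (FDR = 0.000434). Eif4g3 had -0.48 ± 0.15 (FDR = 0.0124; 0.0632 without mouse 8) and -0.41 ± 0.15 (FDR = 0.0337), the second lost without mice 9 and 10 (FDR = 0.0957) and without mouse 4 (0.0570), 10 (0.0834) or 12 (0.0776). Eif4b, which stimulates the helicase, had -0.38 ± 0.12 (FDR = 0.013; 0.0671 without mouse 8) and -0.12 ± 0.12 (FDR = 0.443).

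On the other side, Eif4h, which also stimulates the helicase, was higher by 0.67 ± 0.15 and 0.86 ± 0.15, Eif4a3, the eIF4A relative of the exon junction complex, by 0.56 ± 0.09 and 0.31 ± 0.09 (FDR = 0.0104; 0.0506 without mouse 4), and Eif4e2, a cap-binding protein that does not assemble eIF4F, by 0.52 ± 0.10 and 0.53 ± 0.10. The core components did not pass in either set: Eif4e had -0.20 ± 0.16 (-0.10 without mouse 8) and -0.17 ± 0.16, Eif4a1 0.16 ± 0.11 and -0.01 ± 0.11, and Eif4g1 0.27 ± 0.12 and 0.25 ± 0.12, which passed in the first without mouse 11 (FDR = 0.0254) and in the second without mouse 6 (FDR = 0.0255), while without mouse 11 the second was 0.09 (FDR = 0.569). With the mouse as a block Eif4a1 was higher with the GFP LNA (0.16 ± 0.06, FDR = 0.0424), and so was Eif4e3, a further eIF4E relative, with the SNORA73 LNA (0.45 ± 0.12, FDR = 0.00638; without the block 0.45 ± 0.21, FDR = 0.0978, and 0.0379 without mouse 9).

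Related genes could be compared within each mouse by their log2 ratio of polysome to total RNA. The median ratio over 10 mice was 0.11 for Eif4a1 and -0.76 for Eif4a2, Eif4a1 being the higher in 10 of 10 mice. Likewise Eif4g1 (0.19) was above Eif4g2 (-0.89) in 10 of 10 and above Eif4g3 (-0.41) in 9 of 10, and Eif4e2 (0.52) above Eif4e (-0.21) in 10 of 10. Eif4ebp1 (0.64) was above Eif4ebp2 (0.24) in 10 of 10 mice, as Eif3j2 (1.14) was above Eif3j1 (0.09), and Eif1 (1.03) was above Eif1b (0.76) in 9 of 10. Eif1ax (0.10) was above Eif1a (-0.44) in 9 of 10 mice, but Eif2s3x (-0.38) was above Eif2s3y (-0.10) in only 3 of 10. These pairs describe the same libraries and carry no test.

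**Figure D3:**
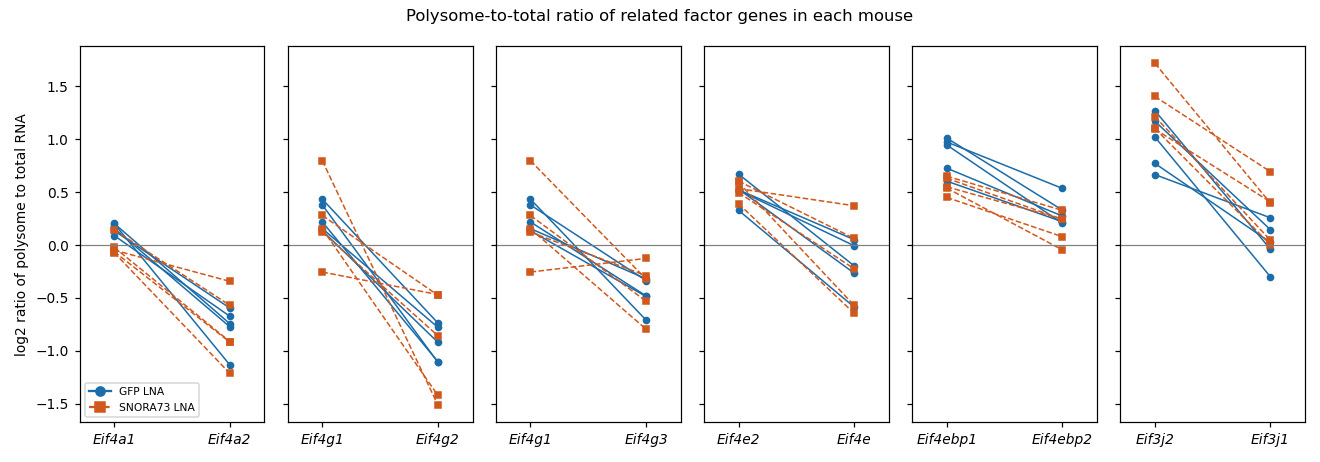
Log2 ratio of polysome to total RNA (vertical axis) for 6 pairs of related genes (Eif4a1 and Eif4a2, Eif4g1 and Eif4g2, Eif4g1 and Eif4g3, Eif4e2 and Eif4e, Eif4ebp1 and Eif4ebp2, Eif3j2 and Eif3j1), each line 1 mouse; blue circles are GFP LNA and orange squares SNORA73 LNA livers. Lines fall from left to right in 10 of 10 mice except for Eif4g1 against Eif4g3, where 1 line rises.

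Among the eIF4E inhibitors, Eif4ebp1 was at 14.2, 13.1, 16.1, 15.1 and 17.98 in total and 21.9, 26.2, 31.5, 25.2 and 36.7 in polysome RNA of GFP LNA livers. With the SNORA73 LNA it was at 15.3, 19.1, 12.7, 11.96 and 14.2 and 22.7, 27.9, 20.3, 16.5 and 22.3. The fold changes were 0.89 ± 0.16 (FDR = 0.000116) and 0.58 ± 0.16 (FDR = 0.00601). Eif4ebp3 varied most between mice of all members, with a standard deviation of 0.61 on the log2 scale within groups, beside a median of 0.212 over members and 0.278 over all genes. It was at 16.3, 18.8, 39.2, 20.6 and 46.1 in total and 27.9, 38.2, 70.9, 33.6 and 91.8 in polysome RNA with the GFP LNA, and at 16.6, 34.96, 41.1, 22.8 and 24.7 and 25.8, 52.4, 66.7, 34.2 and 38.6 with the SNORA73 LNA. Mice high in total RNA were high in polysome RNA, and each mouse was higher in polysome RNA.

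The FDR of Eif4ebp3 was 0.0468 with the GFP LNA (0.90 ± 0.35) and 0.168 with the SNORA73 LNA (0.64 ± 0.36). The first call was lost by leaving out any 1 GFP LNA mouse or mouse 6, 11 or 12 (FDR = 0.0537 to 0.100), whereas with the mouse as a block the second passed (0.63 ± 0.07, FDR = 6.66e-06). Eif4ebp2 had 0.32 ± 0.14 (FDR = 0.0667; with the block 0.31 ± 0.08, FDR = 0.00266) and 0.16 ± 0.14 (FDR = 0.383). Eif4enif1, which carries eIF4E into the nucleus, had -0.24 and -0.29 (-0.10 without mouse 11) and did not pass. Both members of the last initiation group were higher: Eif5a, the hypusine-containing factor that relieves stalled ribosomes, by 0.62 ± 0.10 and 0.52 ± 0.10, and Eif6, which keeps the large subunit apart, by 0.71 ± 0.14 and 0.49 ± 0.14 (FDR = 0.0106; 0.0652 without mouse 12).

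Of the 7 genes grouped by symbol as elongation factors, 2 were higher and 2 lower with the GFP LNA, and 1 was higher and 1 lower with the SNORA73 LNA. Eef1a1 (ENSMUSG00000037742, chr9:78478453-78481724), the main eEF1A of liver, was at 5089, 5350, 5112, 5130 and 4545 in total RNA and 3692, 2720, 2529, 2279 and 3134 in polysome RNA with the GFP LNA. With the SNORA73 LNA it was at 4112, 5153, 3741, 4183 and 4628 and 2746, 3406, 2884, 2637 and 3431. All 10 mice were lower in polysome RNA, by a log2 change of -0.81 ± 0.13 (FDR = 3.56e-05) and -0.53 ± 0.13 (FDR = 0.0024), and Eef1a1 shares sequence with many pseudogene copies. Of the eEF1B subunits, Eef1b2 had -0.48 ± 0.12 (FDR = 0.00408) and -0.11 ± 0.12 (FDR = 0.544), Eef1d was higher by 0.59 ± 0.12 and 0.82 ± 0.12, and Eef1g had -0.05 ± 0.11 and 0.06 ± 0.11. Eef2 stood at 567 to 765 CPM in total and 555 to 735 in polysome RNA with the GFP LNA, and its -0.16 ± 0.13 and -0.14 ± 0.13 did not pass (FDR = 0.347 and 0.423). Eefsec, the selenocysteine factor, was higher with the GFP LNA (0.37 ± 0.14, FDR = 0.0378), but not without mice 9 and 10 together (FDR = 0.0566) or any of mice 2, 3, 4, 8, 9 and 12 (FDR = 0.0508 to 0.241, with 0.24 without mouse 2), and had 0.16 ± 0.14 with the SNORA73 LNA. Eef1e1 had -0.35 ± 0.19 and -0.43 ± 0.19, neither past the test, but passed without mouse 11 in the first (FDR = 0.0310), and in the second without mouse 6 (FDR = 0.0261) or with the block (-0.49 ± 0.20, FDR = 0.0486), while without mouse 11 the second was -0.20 (FDR = 0.311).

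Of the 5 genes for enzymes that modify elongation factors, 3 were higher in both sets and none was lower. The methyltransferase genes Eef1akmt1 (0.90 and 0.76), Eef2kmt (0.63 and 0.65) and Eef1akmt4 (0.67 and 0.62) were those 3, the last not with the SNORA73 LNA without mice 9 and 10 together (FDR = 0.0868), mouse 10 (0.0727) or mouse 12 (0.0712). Eef1akmt4 has a readthrough transcript into Ece2, so its reads are uncertain. Eef2k, the kinase that inactivates eEF2, had 0.36 ± 0.19 and 0.39 ± 0.19 (FDR = 0.13 and 0.116), and 0.34 ± 0.14 and 0.42 ± 0.14 with the block (FDR = 0.0459 and 0.0236). Eef1akmt2 had 0.15 and 0.16, which did not pass.

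The 9 members listed as TOP mRNAs (Eef1a1, Eef1b2, Eef1d, Eef1g, Eef2, Eif3e, Eif3f, Eif3h and Eif4b) had a median of -0.21 with the GFP LNA, where 1 was higher and 3 were lower. For the other 56 members the median was 0.36, with 28 higher and 7 lower. With the SNORA73 LNA the medians were -0.12 and 0.38, with 1 TOP member higher and 1 lower, against 30 higher and 6 lower. The listed 9 were chosen with these results known.

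Of a list of 38 further genes of translation, 36 were expressed. With the GFP LNA 10 were higher (27.8%, against 21.8% of all genes) and 9 lower (25%, against 21.0%), with a median of 0.15. In SNORA73 LNA livers 12 were higher (33.3%, against 19.7%) and 9 lower (25%, against 18.2%), with a median of 0.06. The higher ones held the hypusination enzymes of eIF5A, Dhps (0.51 and 0.36) and Dohh (0.85 and 0.48), the eIF2-binding Abcf1 (1.21 and 1.48) and the recycling factors Mcts1 (0.61 and 0.62) and Mcts2 (0.62 and 0.81). The lower ones held Larp4 (-1.55 and -1.31), Tpt1 (-1.34 and -0.85), the poly(A)-binding protein gene Pabpc1 (-1.09 and -0.75), the recycling ATPase Abce1 (-0.94 and -0.87), and the helicase gene Ddx3x (-0.85 and -0.62). Larp1, the TOP-binding repressor, had 0.09 ± 0.14 with the GFP LNA and did not pass.

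The second question was whether the SNORA73 LNA changed the factor mRNAs. In total RNA none of the 65 members passed, and 4 of 13195 genes did (0.0303%). In polysome RNA none of the 65 passed, and 2 of 13060 genes did (0.0153%). At an unadjusted p under 0.05, 3 members were past it in total RNA (4.62%, against 8.65% of all genes) and 11 in polysome RNA (16.9%, against 13.4%). Member medians were 0.03 in both, over ranges of -0.30 to 0.31 in total and -0.64 to 0.66 in polysome RNA, beside medians of 0.01 and -0.01 over all genes. DESeq2 called 1 member in each (0.515% and 2.16% of all genes), both lower: Eef1b2 in total RNA (-0.31, FDR = 0.00606) and Eif1 in polysome RNA (-0.37, FDR = 0.0472).

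**Figure D4:**
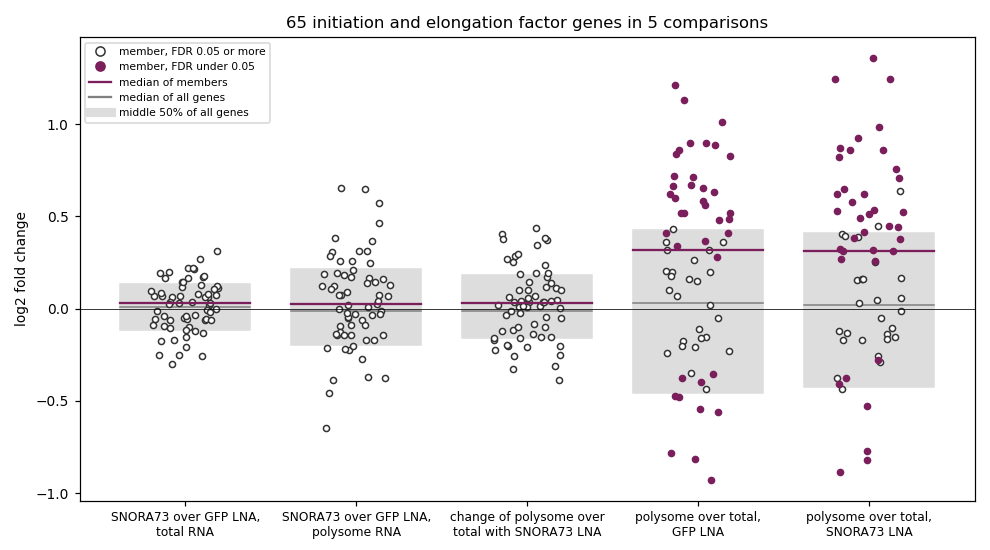
Log2 fold change (vertical axis) of the 65 genes in 5 comparisons, 1 point per gene (filled, FDR under 0.05), with the median of members (purple), the median of all genes (grey line) and the middle 50% of all genes (grey box). No member is filled in the 3 comparisons that involve the SNORA73 LNA against the GFP LNA, and members spread widest between polysome and total RNA.

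In total RNA the groups did not overlap for 3 members (4.62%, against 1.85% of all genes). Eef1b2 was at 312, 317, 308, 320.1 and 286 with the GFP LNA and 262, 267, 233, 254 and 236 with the SNORA73 LNA, a difference of -0.30 ± 0.08 (FDR = 0.357). All 5 SNORA73 LNA livers were below all 5 controls. Eif2b3 was at 6.41, 6.61, 7.25, 6.65 and 6.89 and 7.94, 8.81, 10.2, 7.51 and 7.46, higher in every SNORA73 LNA liver, with 0.31 ± 0.11 (FDR = 0.439). For Eif3c the difference was 0.22 ± 0.09 (FDR = 0.522), and 0.14 ± 0.08 without mouse 11. The largest remaining differences were 0.27 ± 0.15 for Eif5b, -0.26 ± 0.27 for Eif2ak3 and -0.25 ± 0.19 for Eif2s3y, the one for Eif2ak3 turning to 0.07 without control mouse 9.

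In polysome RNA the groups did not overlap for 2 members (3.08%, against 3.18% of all genes). Eif1 was lower in all 5 SNORA73 LNA livers, at the polysome values given above, with -0.38 ± 0.12 (FDR = 0.225). Eif1ax was at 40.2, 42.5, 40.4, 45.9 and 43.8 with the GFP LNA and 50.7, 68.5, 51.2, 47.9 and 46.3 with the SNORA73 LNA, a difference of 0.31 ± 0.12 (FDR = 0.314). Eif2ak2 was at 17.9, 14.5, 15.4, 21.7 and 13.2 and 23.05, 21.5, 32.9, 25.3 and 20.4, with the lowest unadjusted p of the members (0.00425), 0.57 ± 0.17 and an FDR of 0.185. Its groups overlapped, since control mouse 8 was above mice 6 and 12. Eif2ak3 had -0.64 ± 0.22 (FDR = 0.239), Eif2s3y -0.46 ± 0.16 (FDR = 0.249) and Eif2b1 -0.39 ± 0.17 (FDR = 0.361).

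The 2 largest differences upward in polysome RNA became smaller, but stayed above 0, when 1 library was left out. Eif3a was at 351, 316, 262, 321 and 365 with the GFP LNA and at 401, 312, 414, 1002 and 405 with the SNORA73 LNA, mouse 11 holding the outlying value. Its difference was 0.65 ± 0.27 (FDR = 0.321) and 0.26 ± 0.14 without mouse 11. For Eif5b it was 0.66 ± 0.26 (FDR = 0.304) and 0.31 ± 0.15 without that mouse. Eif3j2, Eif3c, Eif2s2 and Eif2b4 were also highest in the polysome library of mouse 11, at 398, 286.5, 761 and 122 CPM, and their differences went from 0.38, 0.36, 0.26 and 0.16 to 0.14, 0.13, 0.13 and -0.08 without it. That library was not extreme for these members alone. It was also the highest polysome library for others, such as Eif5 (899), Eif4g1 (242) and Eif4h (223). For others again, such as Eif4g2 (118), Eif4e (25.2) and Eif2b2 (3.07), it was the lowest. The share of all genes at an extreme in it was not counted.

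The same members varied together in the other libraries. After subtracting group means, log2 levels of Eif5b correlated over 20 libraries with those of Eif3a (r = 0.97), Eif3j2 (0.88), Eif3c (0.87), Eif2s2 (0.86) and Eif2b4 (0.76). Without both libraries of mouse 11 the values over 18 were 0.94, 0.78, 0.67, 0.72 and 0.59. Eif3j1, the copy of Eif3j2, had 0.06 over 20, and 0.21 without mouse 11. Other members went the opposite way, with -0.80 for Eif2b2, -0.76 for Eif2d and -0.73 for Eif4e2 over 20 libraries. Their values without mouse 11 were -0.58, -0.60 and -0.42. The share of all genes with such values was not counted, so the named members are not shown to stand apart as a group. Libraries share mice and depth, so these values are a description. By this measure Eif3a was the member most like Eif5b.

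**Figure D5:**
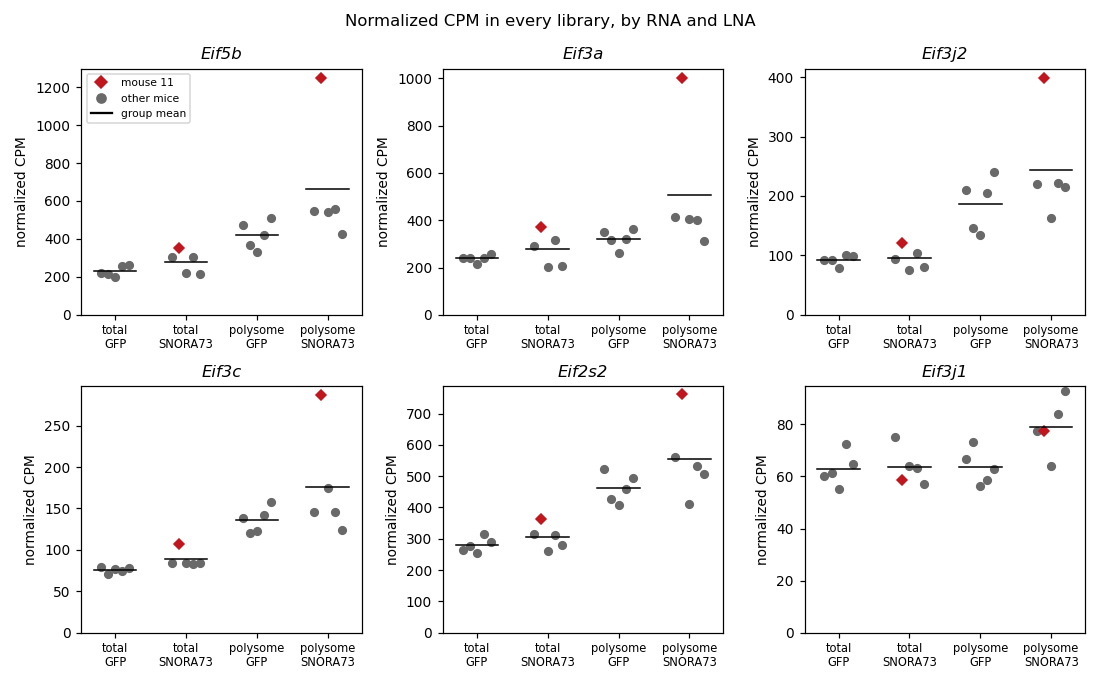
Normalized CPM (vertical axis, from 0) of 6 genes in every library, by RNA and LNA; black lines are group means and red diamonds mouse 11. For Eif5b, Eif3a, Eif3j2, Eif3c and Eif2s2 the polysome library of mouse 11 stands above all others, and for Eif3j1 it does not.

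The third question was whether the SNORA73 LNA changed the ratio of polysome to total RNA, a comparison that uses the same libraries as those above. No member passed, and 1 of 13795 genes did (0.00725%). That model had no term for the mouse. With the mouse as a block, 0 members and 1 of 13795 genes passed. The values that follow are without the block. At an unadjusted p under 0.05 there was 1 member (1.54%, against 2.91% of all genes): Eef1b2, with a change of 0.37 ± 0.18. The largest changes upward were 0.43 ± 0.34 for Eif3a, 0.41 ± 0.26 for Eif1a and 0.38 ± 0.32 for Eif5b, and those of Eif3a and Eif5b were 0.16 ± 0.20 and 0.13 ± 0.21 without mouse 11. The largest downward were -0.39 ± 0.36 for Eif2ak3, -0.33 ± 0.19 for Eif2b1 and -0.31 ± 0.22 for Eif4ebp1. For the 11 members past the test in only 1 set of livers, the difference between the sets was thus not past it either.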

How the data were processed

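Liver RNA of 10 mice was sequenced as 10 total and 10 polysome libraries (polyadenylated RNA, 100 bp paired reads). Per the study's methods, the authors trimmed reads with fastp (Phred 15), removed ribosomal reads with bowtie, quantified transcripts with kallisto against Ensembl 102 (GRCm38), which shares reads among similar transcripts, and summed them per gene with tximport. The deposited values are estimated counts, 14.3% of them not whole, and were rounded. Their number sets the precision (depths are in the results), which covers sampling only.

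Groups came from the labels. edgeR 4.0.16 (R 4.3.3; quasi-likelihood test, TMM scaling, genes over 0.5 CPM in at least 4 libraries) compared the LNAs within each kind of RNA, and polysome with total RNA in 1 model of 20 libraries. Normalized CPM use TMM factors over 20 libraries. P-values were adjusted over all genes. Alternatives were DESeq2 1.42.0, limma-voom 3.58.1, other scalings and filters, each mouse left out, and mice 9 and 10 left out together. The study used 4 mice per group without naming those excluded. A mouse carries 1 number in both kinds of RNA, its libraries' deviations correlated (r = 0.146 to 0.694; only mouse 6 correlated better with another mouse, r = 0.327), and a block for mouse was an alternative. Scripts were tested on simulated data.

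Members, roles and lists were chosen with earlier results of these data known. Named members were the up to 6 highest and 6 lowest past the test per comparison, or 3 where fewer than 3 passed, a set of central factors, those nearest to the level threshold and the TOP list, and others are given by role. Promoter sequence (RefSeq, GRCm38.p6) was used for 51 of 65 members, with member starts on chromosome 18 left out. Of marker lists for 7 cell types, compared between the LNAs, Stab2 (sinusoidal endothelium) was the 1 marker past the test in total RNA, higher with the SNORA73 LNA. The lists of Kupffer, stellate, bile duct, B and T cells showed none there, but only 2 of 4 bile duct and 2 of 4 B and T cell markers reached the level to be tested.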

Additional observations from a re-analysis of the deposited data

Results flagged for a closer look

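Within groups of 5 libraries, a single value stood far from the other 4 in 12 of the 152 groups examined for 38 members. Chance alone would mark about 1 in 20 independent groups. That rate is no reference here, since groups share mice and many of the members were named for extreme fold changes in these libraries. Of the 12 values, 5 were the highest value in mouse 11. In polysome RNA with the SNORA73 LNA this mouse was at 1246 CPM for Eif5b (next 556), 1002 for Eif3a (next 414), 398 for Eif3j2 (next 222) and 127 for Eif3e (next 99.97), and in total RNA at 107 for Eif3c (next 84.6). In the same polysome group mouse 12 was highest for Eef1g, at 184 CPM (next 166).

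In total RNA with the GFP LNA, mouse 9 was highest for Eif2ak3 at 13.3 CPM (next 6.32), mouse 8 for Eif2s1 at 48.9 (next 38.8) and for Eif4e at 48.2 (next 39.6), and mouse 2 for Eif4g2 at 380.2 (next 334). With the SNORA73 LNA, total RNA of mouse 10 was highest for Eif4e at 55.7 CPM (next 41.9) and lowest for Eif2ak4 at 2.98 (next 4.04). Their cause was not tested.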

How the results depend on the processing

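Members higher in polysome than in total RNA numbered 25 to 35 with the GFP LNA over 20 alternatives, and 25 to 35 with the SNORA73 LNA, and those lower 7 to 12 and 5 to 9. Calls over all genes moved too, of 10029 to 29675 genes tested. With the GFP LNA 2384 to 3983 genes were higher and 2357 to 3755 lower, and with the SNORA73 LNA 2127 to 3586 and 2025 to 3462. A member's call held under all alternatives for 24 of 29 higher and 7 of 10 lower members with the GFP LNA and for 21 of 31 and 4 of 7 with the SNORA73 LNA. Under DESeq2, 1 member was called in total RNA (Eef1b2) and 1 in polysome RNA (Eif1) between the LNAs, where the other 17 alternatives gave 0, and the cause was not tested. Over all genes, DESeq2 called 47 higher and 21 lower in total and 232 higher and 50 lower in polysome RNA, and without mice 9 and 10 the counts were 76 and 21, and 27 and 4. In polysome RNA 1 model of all 20 libraries called 242 higher and 75 lower. The replicate block by mouse gave 35 higher and 12 lower members with the GFP LNA and 35 and 8 with the SNORA73 LNA, gained 13 calls that stand beside the genes, and lost none. No paired analysis was possible between the LNAs because no mouse number occurs in both groups. Directions turned for values near 0: with the SNORA73 LNA, Eef1g (0.06) was at -0.013 and Eif3e (0.03) at -0.041 with CPM over 1 in every library, Eif3e was at -0.00218 with the block and 8 mice, and Eif4a1 (-0.01) was at 0.025 without TMM. Leaving out single mice gave -0.0018 to 0.12 for Eef1g, -0.015 to 0.055 for Eif3e, -0.049 to 0.0025 for Eif4a1 and, between the LNAs in total RNA, -0.38 to 0.073 for Eif2ak3, the cause not being tested. Without TMM the median of all genes between the LNAs moved to -0.14 in total and -0.17 in polysome RNA, and that of members to -0.12 and -0.14. Members at under 10 CPM, such as Eif2b2, Eef2k and Eif2ak4, rest on the fewest reads.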
